A study of Mus musculus with 9 samples.

Results

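Integrin and laminin genes were followed across 9 Clariom S microarrays of mouse fetal thymic lobes collected on embryonic day e13.5. The members were the named transcript clusters whose symbol is Itga or Itgb followed by a number, a letter or both, or Lama, Lamb or Lamc followed by a number, with the cluster of highest mean where a symbol had several. This rule gave 35 genes (25 integrin and 10 laminin genes, each with 1 cluster) of 22206 transcript clusters, which carry 19505 distinct symbols. The lobes were all of strain C57BL/6 and came from wild type (labelled wt), Foxn1933/1089 and Tbx1neo2/neo2 embryos, with 3 arrays per genotype and no treatment named. Foxn1 encodes the transcription factor on which thymic epithelial differentiation depends, and the Foxn1933/1089 embryos (Foxn1 mutants below) had unlike mutant alleles on their chromosome pair. Tbx1 encodes a T-box factor of the pharyngeal apparatus, and neo2 is known as an allele that lowers Tbx1 expression (Tbx1 mutants below). The labels do not say whether lobes were pooled or whether each array had its own embryo, and the p-values therefore measure a spread between samples that may be technical. In such bulk RNA, fewer cells of a type and less RNA per cell cannot be told apart.

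Integrins are adhesion receptors made of an alpha and a beta subunit, encoded by Itga and Itgb genes, which bind matrix proteins or receptors on other cells and couple them to the actin cytoskeleton. Laminins are trimers of an alpha, a beta and a gamma chain, encoded by Lama, Lamb and Lamc genes, and form the core network of basement membranes. In the fetal thymus, epithelium rests on a laminin-rich basement membrane that separates it from the neural crest mesenchyme of the capsule, and blood-borne progenitors use leukocyte integrins to enter and adhere. The members were divided by where they are best known to be expressed into 8 leukocyte, 2 platelet, 9 epithelial and 10 mesenchymal genes and 6 genes shared by many cell types. Itga1 and Itga10 were not analysed here.

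All values are the deposited log2 values, and a difference of 1 is a doubling of signal. The array medians lay between 5.09 and 5.20. The medians of the 5222 negative-control probes lay between 4.27 and 4.94 and their 95th percentiles between 8.03 and 9.70. Above the negative-control median of every array stood 24 of the 35 members, 9 did so on some arrays, and Lamc3 and Itgb2l did so on none. Above the 95th percentile of every array stood 5 members, Itga6, Itga9, Itgb1, Lamb1 and Lamc1. Wild type replicate 1 and Foxn1 mutant replicate 2 stood apart from the other 7 arrays. The mean of the 12 thymic epithelial markers was 8.24 and 8.66 on these arrays (11.50 to 12.17 on the others), and that of the 13 measured leukocyte markers 6.29 and 6.51 (9.14 to 10.41). Prss16, a protease of cortical thymic epithelium, was under the negative-control median on both. Wild type replicate 1 had the highest mean of 7 neuronal markers (12.74; 5.79 to 6.09 elsewhere). The highest means of 8 mesenchymal markers (12.86) and 6 heart muscle markers (8.26) were those of Foxn1 mutant replicate 2, and the highest mean of 8 skeletal muscle markers (8.88) that of wild type replicate 2. Foxn1 read 7.78, 10.35 and 10.01 for wild type lobes, 9.02, 8.73 and 9.67 for Foxn1 mutant lobes and 8.88, 10.04 and 9.70 for Tbx1 mutant lobes. Tbx1 lay between 4.07 and 5.85 and overlapped between the genotypes, and the sources used here do not place the probes of either gene relative to its altered part, so neither checks the genotypes. The 3 measured parathyroid markers had means between 10.08 and 13.60 on the wild type and Foxn1 mutant arrays and between 5.37 and 5.92 on the Tbx1 mutant arrays. A date code in each sample title splits the arrays 3 ways, and what it stands for is not stated in the sources used here. Replicate 3 of wild type, replicate 2 of the Foxn1 mutants and replicate 1 of the Tbx1 mutants share the code called A. The code called B joins replicate 2 of wild type to the other Foxn1 mutant arrays, and the code called C joins replicate 1 of wild type to the other Tbx1 mutant arrays. The titles of all wild type arrays begin with Foxn, like those of the Foxn1 mutants, and those of the Tbx1 mutants begin with Tbx. What this prefix stands for is not stated either. Any difference it marks cannot be told apart from genotype between the Tbx1 mutants and the other arrays.

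**Figure D1:**
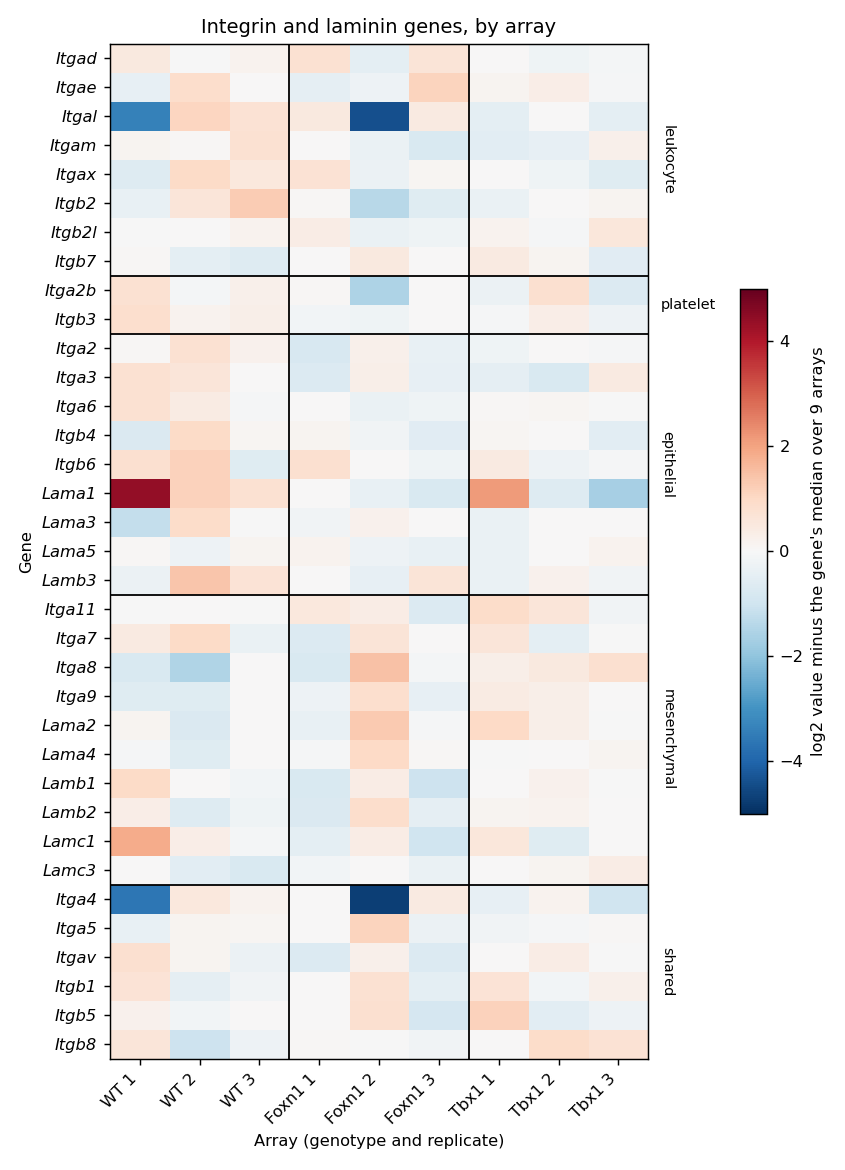
Log2 value of each of the 35 genes (rows, grouped by class) on each of the 9 arrays (columns, by genotype and replicate), shown as the difference from that gene's median over the arrays. Itgal and Itga4 are darkest blue on replicate 1 of wild type and replicate 2 of the Foxn1 mutants, and Lama1 is darkest red on wild type replicate 1.

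Among the leukocyte integrins, Itgal had the widest range over the arrays, and its low values fell on arrays of different genotypes. Itgal encodes the alpha subunit of LFA-1, which lymphocytes use to bind ICAM ligands. It read 5.48, 9.91 and 9.58 for wild type lobes, 9.33, 4.45 and 9.30 for Foxn1 mutant lobes and 8.37, 8.85 and 8.37 for Tbx1 mutant lobes. The lowest values were those of wild type replicate 1 and Foxn1 mutant replicate 2, and the other 7 arrays lay between 8.37 and 9.91, so the genotypes overlapped. Ptprc, the pan-leukocyte marker CD45, was at 6.44 and 5.87 on the same arrays and at 10.26 to 12.36 on the others. The difference of Itgal from wild type was -0.63 ± 1.42 in the Foxn1 mutants (SE, n = 3 per genotype; 95% interval -3.81 to 2.55) and 0.21 ± 1.42 in the Tbx1 mutants (-2.97 to 3.39). Without the arrays that stood apart these became -0.43 and -1.21, the second with its sign turned (adjusted p = 0.268 with limma).

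Itga4, which encodes the alpha subunit that pairs with Itgb1 to bind VCAM-1 and fibronectin or with Itgb7 to bind MAdCAM-1, had nearly the same profile. It is made by leukocytes and by some mesenchyme and had been placed among the shared genes. It read 9.19, 13.31 and 12.98 for wild type lobes, 12.79, 8.10 and 13.23 for Foxn1 mutant lobes and 12.39, 12.98 and 11.80 for Tbx1 mutant lobes. Again wild type replicate 1 and Foxn1 mutant replicate 2 were the lowest, 3.79 and 4.88 log2 units under the median of the other 7 arrays. With Lama1, Itgal and Itga4 were the members whose range over the arrays was above 5 log2 units, a range that 1.14% of all clusters exceed. The differences from wild type were -0.45 ± 1.40 in the Foxn1 mutants and 0.57 ± 1.40 in the Tbx1 mutants (SE, n = 3 per genotype), and -0.13 and -0.75 without the arrays that stood apart.

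Itgb7, the beta subunit of mucosal lymphocyte integrins, did not share that profile although it pairs with Itga4 and Itgae. It read 9.21, 8.67 and 8.51 for wild type lobes, 9.16, 9.63 and 9.16 for Foxn1 mutant lobes and 9.60, 9.28 and 8.58 for Tbx1 mutant lobes. It was not low on either array that stood apart, and Foxn1 mutant replicate 2 held its highest value. Itgb7 was 0.52 ± 0.31 in the Foxn1 mutants and 0.36 ± 0.31 in the Tbx1 mutants relative to wild type (SE, n = 3 per genotype), with overlapping arrays in both cases. Its partner Itgae, the alpha subunit that binds E-cadherin, read 4.19, 5.46 and 4.59 for wild type lobes, 4.16, 4.34 and 5.71 for Foxn1 mutant lobes and 4.71, 4.95 and 4.54 for Tbx1 mutant lobes. Itgae was above the negative-control median on 5 arrays, and its differences from wild type were -0.01 and -0.01.

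Sequences are shown for Itga4 and Itgb7, partner genes with unlike profiles, and for Itga8, whose arrays separated the Tbx1 mutants from wild type as described further on. They are the 250 bases before the gene start in RefSeq's GRCm38.p6 table, written 5′ to 3′ on the gene's strand. RefSeq promoters matched 22 of the 35 members. Itga4 lies at chr2:79255176-79255425 on the plus strand, Itgb7 at chr15:102231936-102232185 on the minus strand and Itga8 at chr2:12301945-12302194 on the minus strand. Capitals mark matches, on either strand, to the RUNX core TGTGGT, the ETS site GAGGAAG, the GC box GGGCGG or the TATA box TATAAA, which share no overlapping match in these windows. The motifs were chosen after the values had been seen.
Itga4: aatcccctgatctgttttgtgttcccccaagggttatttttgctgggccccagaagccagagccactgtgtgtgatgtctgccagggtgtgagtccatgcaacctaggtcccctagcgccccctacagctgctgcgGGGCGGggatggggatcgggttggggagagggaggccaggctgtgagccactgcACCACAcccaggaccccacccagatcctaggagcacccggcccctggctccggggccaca
Itgb7: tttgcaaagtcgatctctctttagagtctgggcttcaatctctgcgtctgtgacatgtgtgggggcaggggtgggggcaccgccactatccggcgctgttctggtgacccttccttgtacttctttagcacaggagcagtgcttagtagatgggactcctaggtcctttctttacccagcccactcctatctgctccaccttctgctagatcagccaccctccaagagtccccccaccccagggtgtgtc
Itga8: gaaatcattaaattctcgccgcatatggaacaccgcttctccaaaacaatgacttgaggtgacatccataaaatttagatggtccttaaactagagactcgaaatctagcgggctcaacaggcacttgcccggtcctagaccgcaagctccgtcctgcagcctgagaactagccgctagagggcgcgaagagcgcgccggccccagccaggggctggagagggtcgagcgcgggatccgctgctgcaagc
The Itga4 window held 1 RUNX core, which begins 60 bases before the start, and 1 GC box, 114 bases before it, and the windows of Itgb7 and Itga8 held no match. RUNX cores were present in 2 of the 22 matched members (Itga3 and Itga4) and in 14% of all 32851 promoter windows of this length. ETS sites were present in 8 of the 22 (10.6% of all windows), GC boxes in 8 (32.7%) and TATA boxes in 0 (12.4%). These are letter matches and not binding sites. Itga3, Itgb6 and Lamb3 had more than 1 window each and were counted where any of their windows matched. The percentages are of single windows, so the member counts are not strictly comparable to them.

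Most of the remaining leukocyte members lay near background. Itgb2 encodes CD18, the beta subunit shared by LFA-1 and the myeloid integrins, and read 3.93, 4.89 and 5.55 for wild type lobes, 4.34, 2.89 and 3.69 for Foxn1 mutant lobes and 3.94, 4.28 and 4.42 for Tbx1 mutant lobes. It passed the negative-control median only on wild type replicates 2 and 3, so its difference of -1.15 ± 0.45 between Foxn1 mutants and wild type (SE, n = 3 per genotype; adjusted p = 1.00) is limited by background. With the negative-control median as the lowest level it was -0.67. Itgam, the alpha subunit of the macrophage receptor Mac-1, read 5.22, 5.14 and 5.84 for wild type lobes, 5.10, 4.78 and 4.34 for Foxn1 mutant lobes and 4.58, 4.69 and 5.34 for Tbx1 mutant lobes. All 3 Foxn1 mutant arrays lay under all wild type arrays, the nearest being 5.10 and 5.14, and the difference was -0.66 ± 0.30. Csf1r, the receptor of the macrophage growth factor, was highest on Foxn1 mutant replicate 2 (10.20; 8.59 to 9.04 elsewhere), an array on which Itgam was not high. Itgax, Itgad and Itgb2l, subunits of myeloid integrins, exceeded the negative-control median on 3, 1 and 0 arrays. Itgam, Itgax and Itgad are neighbouring coding genes on chromosome 7, and their highest arrays differed: wild type replicate 3, wild type replicate 2 and Foxn1 mutant replicate 1.

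**Figure D2:**
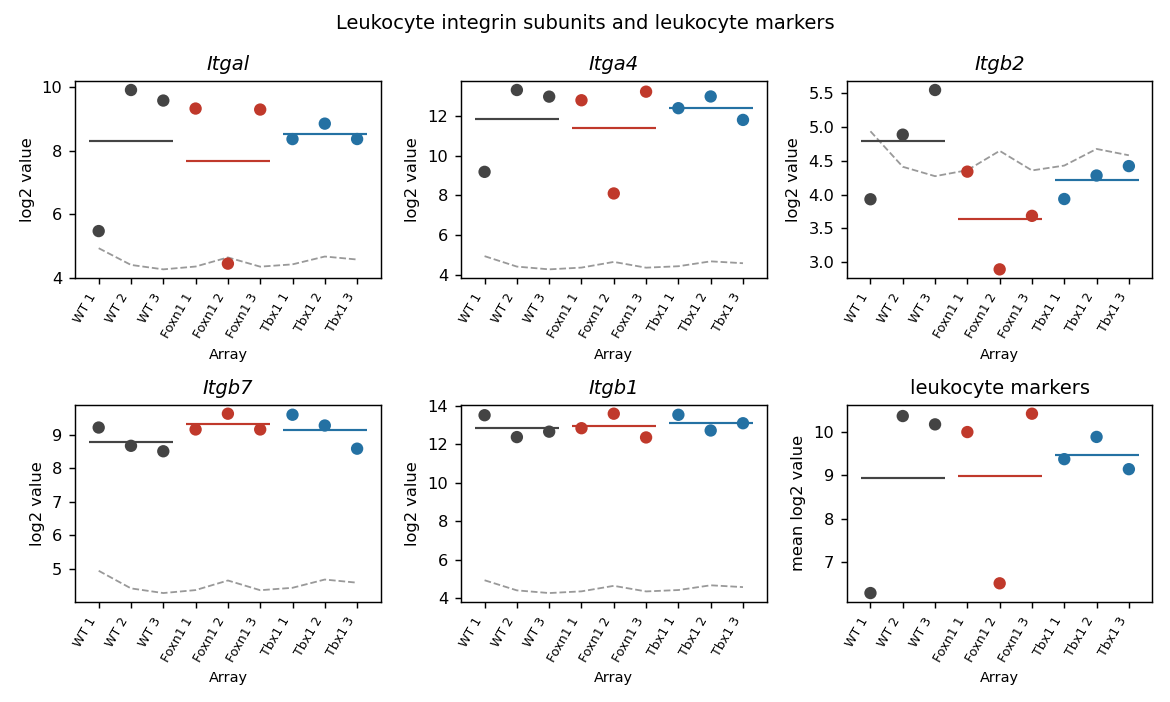
Log2 values of Itgal, Itga4, Itgb2, Itgb7 and Itgb1 and the mean log2 value of the 13 measured leukocyte markers, 1 point per array (WT, wild type). Solid lines are genotype means of 3 arrays and the dashed line is each array's negative-control median. Itgal, Itga4 and the leukocyte markers drop on replicate 1 of wild type and replicate 2 of the Foxn1 mutants, and Itgb7 does not.

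Itga2b and Itgb3 encode the subunits of the platelet fibrinogen receptor, and Itga2b also marks early blood progenitors. Itga2b read 7.74, 6.90 and 7.25 for wild type lobes, 7.03, 5.46 and 6.99 for Foxn1 mutant lobes and 6.71, 7.79 and 6.30 for Tbx1 mutant lobes. Its highest arrays, Tbx1 mutant replicate 2 and wild type replicate 1, were also those on which Pf4, platelet factor 4, was highest (10.56 and 11.23; 7.94 to 9.71 elsewhere). Ppbp, another platelet chemokine, had the same highest arrays. Gp9, a further platelet marker, was also highest on wild type replicate 1 (5.97). On Tbx1 mutant replicate 2 Gp9 read 4.68, under every wild type array (5.97, 5.00 and 5.16). The mean of the 4 measured of 7 listed platelet markers was 7.29, 5.35 and 6.26 for wild type lobes, 5.74, 5.59 and 5.32 for Foxn1 mutant lobes and 5.54, 6.52 and 5.49 for Tbx1 mutant lobes, with Gp9 above the negative-control median on every array and Gp5 on none. Their part in the result was not tested. The difference of Itga2b was -0.80 ± 0.50 in the Foxn1 mutants and -0.36 ± 0.50 in the Tbx1 mutants (SE, n = 3 per genotype), and -0.06 and -0.14 without the arrays that stood apart. Itgb3, which also pairs with Itgav on endothelium, read 6.52, 5.85 and 5.98 for wild type lobes, 5.57, 5.49 and 5.69 for Foxn1 mutant lobes and 5.63, 6.01 and 5.45 for Tbx1 mutant lobes. Each Foxn1 mutant array lay under each wild type array, and the difference was -0.53 ± 0.24 (95% interval -1.07 to 0.01; adjusted p = 1.00 with limma). It was -0.28 without the arrays that stood apart. Itga2b and Itgb3 were above the negative-control median on every array and exceeded the 95th percentile on no array.

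The epithelial members read lower in both mutants than in wild type for 8 of 9 genes, without a call. Of these members, Itga2, Itga3, Itgb4, Itgb6, Lama5 and Lamb3 exceeded the negative-control 95th percentile on no array, and Lama1 on 1. The count of directions therefore rests largely on values within the range of the negative controls. Itga6 encodes the laminin receptor subunit of epithelial hemidesmosomes and read 14.01, 13.67 and 13.19 for wild type lobes, 13.26, 12.94 and 13.04 for Foxn1 mutant lobes and 13.32, 13.37 and 13.23 for Tbx1 mutant lobes. Foxn1 mutant replicate 2 was lowest and wild type replicate 1 highest, and replicate 1 of the Foxn1 mutants (13.26) overlapped the wild type range. The difference was -0.54 ± 0.24 in the Foxn1 mutants (SE, n = 3 per genotype; 95% interval -1.07 to -0.01; adjusted p = 1.00 with limma) and -0.31 ± 0.24 in the Tbx1 mutants. These were -0.35 and -0.12 without wild type replicate 1, and -0.28 and -0.12 without both arrays that stood apart. In the Tbx1 mutants the difference was -0.53 without wild type replicate 3. Its hemidesmosome partner Itgb4 read 6.32, 8.0 and 7.15 for wild type lobes, 7.17, 6.89 and 6.48 for Foxn1 mutant lobes and 7.13, 7.05 and 6.53 for Tbx1 mutant lobes, and unlike Itga6 it was lowest on wild type replicate 1.

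Itga3, which pairs with Itgb1 as another laminin receptor, read 8.12, 7.97 and 7.37 for wild type lobes, 6.70, 7.65 and 6.98 for Foxn1 mutant lobes and 6.92, 6.60 and 7.84 for Tbx1 mutant lobes. It was -0.71 ± 0.37 in the Foxn1 mutants and -0.70 ± 0.37 in the Tbx1 mutants relative to wild type (SE, n = 3 per genotype), with overlap in both. Itga2, a collagen receptor subunit of epithelium and platelets, read 6.24, 6.95 and 6.41 for wild type lobes, 5.39, 6.45 and 5.82 for Foxn1 mutant lobes and 5.97, 6.20 and 6.13 for Tbx1 mutant lobes. All Tbx1 mutant arrays were under all wild type arrays, the nearest being 6.20 and 6.24, and the difference was -0.44 ± 0.30. Over the 12 thymic epithelial markers 10 were higher in the Tbx1 mutants and 5 in the Foxn1 mutants, with medians of 0.89 and -0.07, which became -0.41 and -0.22 without the arrays that stood apart. Their part in the values of the epithelial members was not tested. Itgb6, whose product activates TGF-beta on epithelia, ranged over 1.76 log2 units with its lowest and highest values both in wild type (5.85 and 7.61).

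The epithelial laminin chains had unlike profiles. Lama1 encodes the alpha chain of the early embryonic laminin and had the widest spread of all members. It read 10.77, 7.53 and 7.14 for wild type lobes, 6.39, 6.00 and 5.63 for Foxn1 mutant lobes and 8.52, 5.73 and 4.72 for Tbx1 mutant lobes. Wild type replicate 1 was the highest array, Tbx1 mutant replicate 1 came next, and every Foxn1 mutant array lay under every wild type array. The difference was -2.48 ± 1.08 in the Foxn1 mutants (SE, n = 3 per genotype; 95% interval -4.89 to -0.06; adjusted p = 1.00 with limma) and -2.16 ± 1.08 in the Tbx1 mutants. Without the arrays that stood apart these were -1.33 and -1.01, as they were without wild type replicate 1 alone. In the Tbx1 mutants the difference was -3.26 without Tbx1 mutant replicate 1 and -1.35 without replicate 3. Within title codes, Lama1 in the Foxn1 mutants was -1.14 in A and -1.52 in B, and in the Tbx1 mutants it turned from 1.38 in A to -5.55 in C.

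Lama3 and Lamb3 encode chains of the laminin that anchors hemidesmosomes. Lama3 read 7.30, 9.43 and 8.48 for wild type lobes, 8.34, 8.72 and 8.51 for Foxn1 mutant lobes and 8.18, 8.53 and 8.52 for Tbx1 mutant lobes, with wild type replicate 1 the lowest array and wild type replicate 2 the highest. The same wild type replicate 2 was the highest array for Lamb3, Itga2, Itgb4 and Itgb6, 5 of the 9 epithelial members in all (it is the highest for 10.7% of all clusters), and it also held the highest thymic epithelial marker mean (12.17). Another 3 epithelial members, Itga3, Itga6 and Lama1, were highest on wild type replicate 1 (16.3% of all clusters). That array held the lowest thymic epithelial marker mean (8.24). Lamb3 read 3.61, 5.26 and 4.59 for wild type lobes, 3.90, 3.47 and 4.56 for Foxn1 mutant lobes and 3.57, 4.11 and 3.71 for Tbx1 mutant lobes and passed the negative-control median on 3 arrays. Lama5, the alpha chain of the laminin that covers mature epithelial basement membranes, varied least of all members. It read 6.61, 6.29 and 6.71 for wild type lobes, 6.74, 6.30 and 6.20 for Foxn1 mutant lobes and 6.24, 6.56 and 6.74 for Tbx1 mutant lobes. Its 95% interval was -0.64 to 0.40 for the Foxn1 mutants and -0.55 to 0.50 for the Tbx1 mutants, with every bound under 1 log2 unit in size. Lama5 stayed under the negative-control 95th percentile on every array, which limits what its small spread can show.

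The mesenchymal members were led by Itga8, the receptor subunit that binds nephronectin in mesenchyme. It read 9.56, 8.82 and 10.32 for wild type lobes, 9.57, 11.77 and 10.21 for Foxn1 mutant lobes and 10.64, 10.79 and 11.11 for Tbx1 mutant lobes. Every Tbx1 mutant array lay above every wild type array, and the highest value belonged to Foxn1 mutant replicate 2. The Tbx1 mutants were higher by 1.28 ± 0.54 (SE, n = 3 per genotype; 95% interval 0.06 to 2.50; adjusted p = 1.00 with limma), a value that was 1.27 without the arrays that stood apart, 0.84 with the title code as a fixed block, 0.31 within code A and 1.39 within code C. The Foxn1 mutants were higher by 0.95 ± 0.54, and by 0.32 without the arrays that stood apart. Npnt, the gene of nephronectin, read 14.73, 13.17 and 13.92 for wild type lobes, 13.11, 13.15 and 13.92 for Foxn1 mutant lobes and 11.57, 11.71 and 12.38 for Tbx1 mutant lobes. Npnt was lower on all Tbx1 mutant arrays than on any other array, by 2.05 ± 0.41 from wild type (adjusted p = 0.422 with limma), the opposite side from Itga8.

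Itga9, a tenascin and osteopontin receptor subunit, read 12.41, 12.39 and 13.00 for wild type lobes, 12.74, 13.84 and 12.60 for Foxn1 mutant lobes and 13.41, 13.28 and 13.02 for Tbx1 mutant lobes. Its Tbx1 mutant arrays also lay above all wild type arrays, the nearest being 13.02 and 13.00, with a difference of 0.64 ± 0.34 (SE, n = 3 per genotype). Lama4, the alpha chain of vascular and mesenchymal laminins, read 9.45, 8.90 and 9.55 for wild type lobes, 9.47, 10.52 and 9.58 for Foxn1 mutant lobes and 9.51, 9.52 and 9.66 for Tbx1 mutant lobes, and Lama2, that of muscle and nerve basement membranes, read 7.20, 6.36 and 7.06 for wild type lobes, 6.69, 8.39 and 7.01 for Foxn1 mutant lobes and 8.05, 7.36 and 7.03 for Tbx1 mutant lobes. Both peaked on Foxn1 mutant replicate 2, as did Itga8, Itga9 and Lamb2. In all, 5 of the 10 mesenchymal members were highest on that array, against 14.2% of all clusters. The mesenchymal marker list peaked on it too, and its means over 8 of 9 listed markers were 11.14, 11.10 and 11.61 for wild type lobes, 11.74, 12.86 and 11.70 for Foxn1 mutant lobes and 12.26, 11.91 and 12.21 for Tbx1 mutant lobes. The marker list was thus higher on each array of both mutants than on any wild type array. Itga8 and Itga9 were so only in the Tbx1 mutants, and their Foxn1 mutant arrays overlapped wild type. Of the 8 marker genes 7 were higher in the Tbx1 mutants with a median difference of 1.04 (8 of 8 and 0.87 in the Foxn1 mutants). The means of the endothelial (7.64), macrophage (7.72) and heart muscle (8.26) markers were also highest on Foxn1 mutant replicate 2. The part of these lists and of the mesenchymal list in the result was not tested. Lamc3, the gamma chain of some nerve and testis laminins, read 4.18, 3.66 and 3.43 for wild type lobes, 4.03, 4.19 and 3.86 for Foxn1 mutant lobes and 4.18, 4.31 and 4.54 for Tbx1 mutant lobes. It was under the negative-control median on every array, so its 0.58 ± 0.24 in the Tbx1 mutants is a difference between background values (0.02 with the negative-control median as a floor). Itga7 and Itga11, receptor subunits of muscle and of collagen-rich mesenchyme, passed the negative-control median on 2 and 1 arrays.

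Lamb1 and Lamc1 encode the beta and gamma chains common to most embryonic laminins. They had been placed among the mesenchymal genes, and the counts and medians of that class include both. Lama1, with which they form a trimer, had been placed among the epithelial genes. Lamc1 read 12.52, 10.98 and 10.55 for wild type lobes, 10.16, 11.02 and 9.65 for Foxn1 mutant lobes and 11.19, 10.04 and 10.64 for Tbx1 mutant lobes. Lamb1 read 12.48, 11.53 and 11.36 for wild type lobes, 10.72, 11.89 and 10.46 for Foxn1 mutant lobes and 11.50, 11.71 and 11.48 for Tbx1 mutant lobes. Both were highest on wild type replicate 1, the array on which Lama1, their partner in the early embryonic trimer, and the neuronal markers were also highest. Foxn1 mutant replicates 3 and 1 held the lowest values of Lamb1, and replicate 3 the lowest of Lamc1. The Foxn1 mutants differed from wild type by -1.07 ± 0.54 for Lamc1 and -0.77 ± 0.40 for Lamb1 (SE, n = 3 per genotype), and by -0.86 and -0.86 without the arrays that stood apart. Lamb2, the beta chain of neuromuscular and kidney laminins, read 9.14, 8.16 and 8.59 for wild type lobes, 8.12, 9.68 and 8.39 for Foxn1 mutant lobes and 8.94, 9.01 and 8.82 for Tbx1 mutant lobes and differed by 0.10 in the Foxn1 mutants and 0.29 in the Tbx1 mutants.

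**Figure D3:**
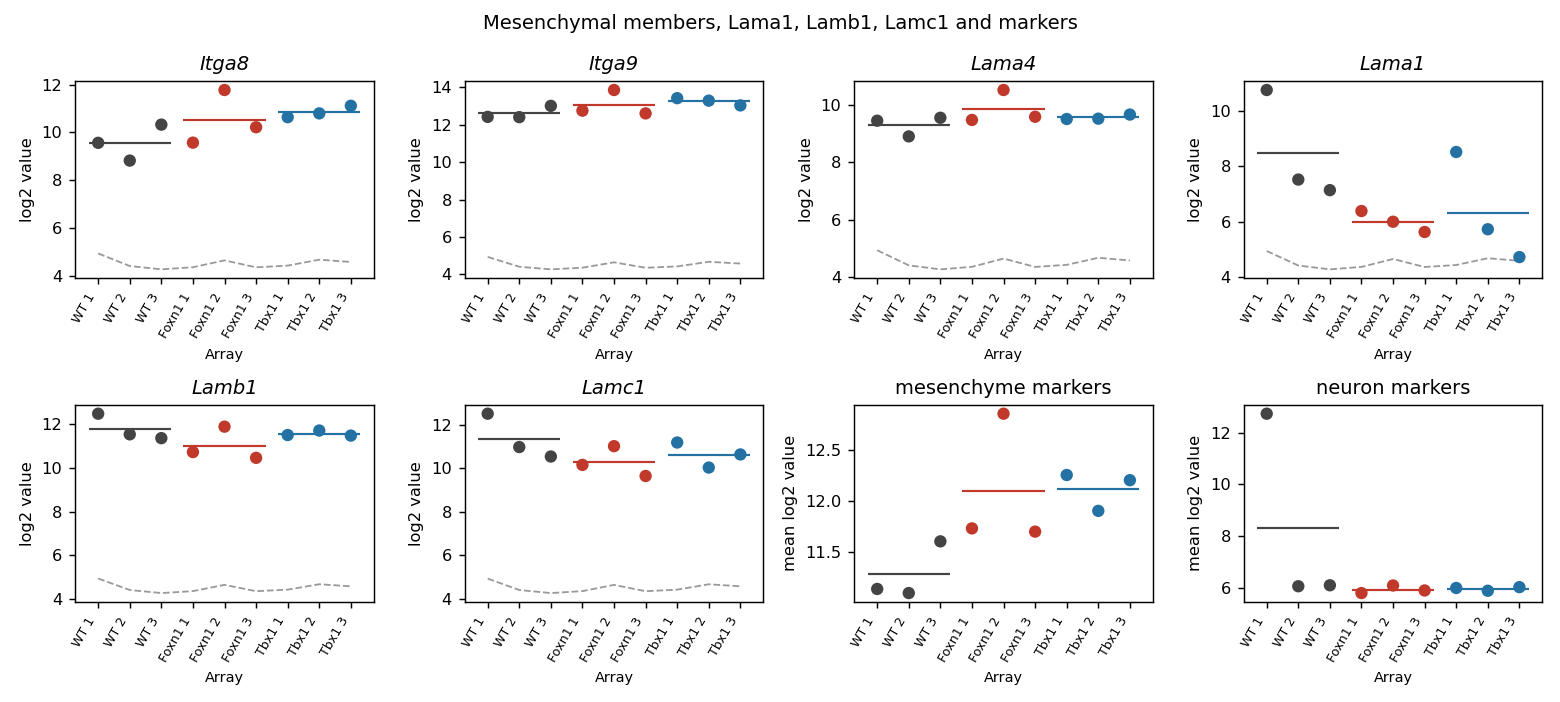
Log2 values of Itga8, Itga9, Lama4, Lama1, Lamb1 and Lamc1 and the mean log2 values of the mesenchymal (8) and neuronal (7) marker lists, 1 point per array (WT, wild type). Solid lines are genotype means of 3 arrays and the dashed line is each array's negative-control median. Foxn1 mutant replicate 2 is the highest point for Itga8, Itga9, Lama4 and the mesenchymal markers, and wild type replicate 1 for Lama1, Lamb1, Lamc1 and the neuronal markers.

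Of the shared subunits, Itgb1, the common beta subunit of matrix-binding integrins, read 13.51, 12.37 and 12.66 for wild type lobes, 12.84, 13.59 and 12.36 for Foxn1 mutant lobes and 13.53, 12.72 and 13.09 for Tbx1 mutant lobes. Its 95% intervals were -0.80 to 0.96 for the Foxn1 mutants and -0.61 to 1.15 for the Tbx1 mutants. Although Itgb1 pairs with Itga4, it was not low on the arrays that stood apart, where it read 13.51 and 13.59. Itga5, the fibronectin receptor subunit, read 8.25, 8.78 and 8.75 for wild type lobes, 8.64, 9.74 and 8.33 for Foxn1 mutant lobes and 8.47, 8.58 and 8.69 for Tbx1 mutant lobes, with Foxn1 mutant replicate 2 alone above 9. Itgav, a subunit of vitronectin and TGF-beta-activating integrins, read 6.93, 6.26 and 5.86 for wild type lobes, 5.48, 6.39 and 5.47 for Foxn1 mutant lobes and 6.14, 6.53 and 6.13 for Tbx1 mutant lobes, and its partner Itgb5 read 7.43, 7.10 and 7.25 for wild type lobes, 7.22, 8.01 and 6.39 for Foxn1 mutant lobes and 8.37, 6.68 and 6.97 for Tbx1 mutant lobes. Itgb8, another Itgav partner that releases TGF-beta, read 6.17, 4.51 and 5.31 for wild type lobes, 5.61, 5.51 and 5.37 for Foxn1 mutant lobes and 5.55, 6.45 and 6.29 for Tbx1 mutant lobes and differed by 0.77 ± 0.40 in the Tbx1 mutants, and by 1.19 without the arrays that stood apart. With the title code as a fixed block this difference was 0.32, and leaving out wild type replicate 2 gave 0.36. The genotypes overlapped for each of the 6 shared genes in both comparisons with wild type.

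Between Foxn1 mutants and wild type, the comparison that asks how the Foxn1 alleles alter the fetal thymic transcriptome, 22 of 35 members read lower and none was called. The epithelial genes had a median difference of -0.51 with 8 of 9 lower, among them Itga6, Itga3 and Lama1. The mesenchymal genes had a median of 0.18 with 7 of 10 higher, among them Itga8 and Lama4. The 7 include Lamc3 and Itga11, above the negative-control median on 0 and 1 arrays. Lamb1 and Lamc1, counted in this class though common to most embryonic laminins, were lower. The leukocyte genes had a median of -0.12 with 6 of 8 lower, Itgb7 and Itgad being the exceptions. Only Itgal and Itgb7 of these 8 exceeded the negative-control 95th percentile on any array. The platelet genes Itga2b and Itgb3 were both lower, with a median of -0.67, and -0.17 without the arrays that stood apart. The 4 measured of 6 listed red cell markers were also all lower, with a median of -2.05, and -1.84 in the Tbx1 mutants, again with 4 of 4 lower. Their means were 14.33, 11.62 and 14.62 for wild type lobes, 10.99, 12.55 and 11.06 for Foxn1 mutant lobes and 12.33, 10.85 and 12.18 for Tbx1 mutant lobes, and their part in the result was not tested. The shared genes were 3 higher and 3 lower. Over all 35 members the median was -0.12, beside 0.02 and 52.4% higher over all clusters.

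By limma, 0 of 35 members passed an adjusted p of 0.05, as did 0 of 22206 clusters (0%). At an unadjusted p under 0.05 there were 3 members (8.57%), Itgb2, Lama1 and Itga6, all lower, where 4.04% of all clusters were. The Foxn1 mutant arrays lay wholly under wild type for 3 members, Lama1, Itgam and Itgb3, where 3.43% of clusters did, and wholly above for 0, where 4.86% did. Without the arrays that stood apart the mesenchymal median was -0.04, with 4 of 10 higher, and the epithelial median -0.70, with 8 of 9 lower. The epithelial median was -0.25 within code A and -1.04 within code B, and -0.24 without wild type replicate 2. Code A holds 1 array per genotype, its Foxn1 mutant array being replicate 2. The mesenchymal median was 0.91 there, with 10 of 10 higher, and 0.18 within code B.

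Between Tbx1 mutants and wild type, the comparison that asks which genes differ in lobes with the neo2 allele on both chromosomes, the mesenchymal members leaned higher and the epithelial members lower, again without a call. Of the 10 mesenchymal genes 7 were higher, with a median of 0.38, led by Itga8 and Itga9. The 7 again include Lamc3 and Itga11, above the negative-control median on 0 and 1 arrays. Of the 9 epithelial genes 8 were lower, with a median of -0.41, among them Itga3, Itga2 and Lama1. The leukocyte median was -0.16, with 5 of 8 lower, and again most of these genes lay near background. Over all members 20 of 35 were lower and the median was -0.03, beside 0.01 and 52.2% higher over all clusters. The wild type arrays are the same as in the comparison above, so the epithelial counts of the mutants are not independent.

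By limma, 0 of 35 members were called, and 3 of 22206 clusters (0.0135%). At an unadjusted p under 0.05 there were 2 members (5.71%), Itga8 and the background-level Lamc3, both higher, where 3.79% of all clusters were. The Tbx1 mutant arrays lay wholly above wild type for 2 members, Itga8 and Itga9 (5.18% of clusters), and wholly under for 1, Itga2 (4.27%). Without the arrays that stood apart the mesenchymal median was 0.50 with 8 of 10 higher and the epithelial median -0.55. Within code A the medians were 0.53 and -0.30, and within code C, whose wild type array is replicate 1, 0.07 and -0.08.

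**Figure D4:**
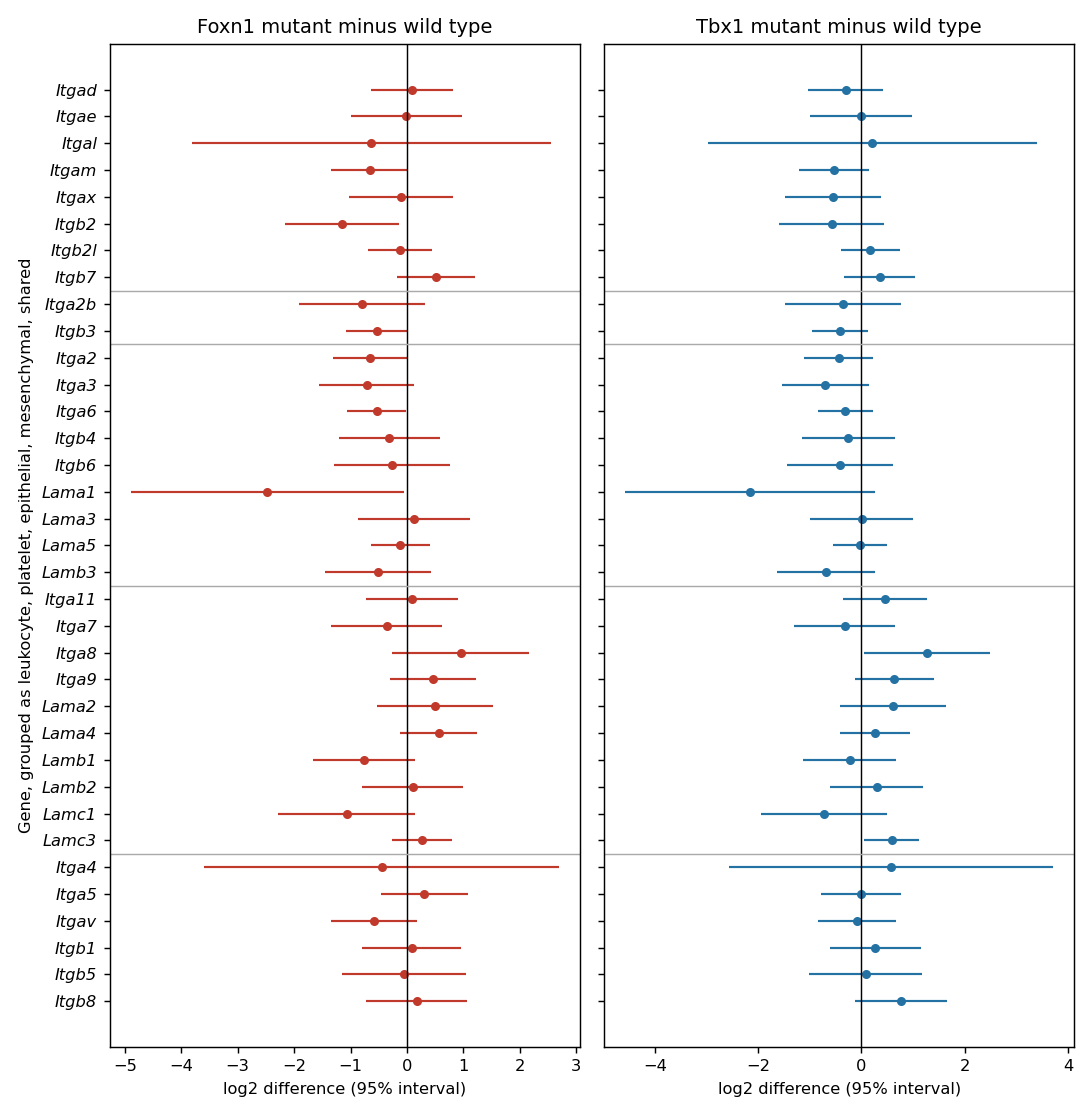
Log2 difference of each gene from wild type (point) with its 95% interval from the model (line), for the Foxn1 mutants (left) and the Tbx1 mutants (right), with 3 arrays per genotype. The widest intervals belong to Itgal, Itga4 and Lama1. Intervals exclude 0 for 3 genes on the left and 2 on the right, and no gene passed an adjusted p of 0.05.

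Between the mutants, 26 of the 35 members read lower in the Foxn1 mutants, with a median of -0.18. Over all clusters 51.3% read higher and the median was 0.0084. Itgb8 and Itgav had the lowest p of the integrins, at -0.60 ± 0.40 and -0.49 ± 0.34, followed by Lamb1 at -0.54 ± 0.40 and the background-level Lamc3 at -0.32 ± 0.24 (SE, n = 3 per genotype). With the title code as a fixed block all 4 turned sign, to 0.29, 0.073, 0.21 and 0.023. By limma 0 members and 0 clusters (0%) were called. At an unadjusted p under 0.05 there were 0 members (2.98% of all clusters), and the arrays separated for 0 members in either direction (5% of clusters higher and 3.91% lower). Of the 10 mesenchymal members 9 were lower, with a median of -0.26, which became 0.27 with the title code as a block, and -0.60 without the arrays that stood apart. The F test for any difference between the genotypes called 0 members and 2 clusters (0.00901%), with 0 members at an unadjusted p under 0.05 (3.22% of clusters).

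**Figure D5:**
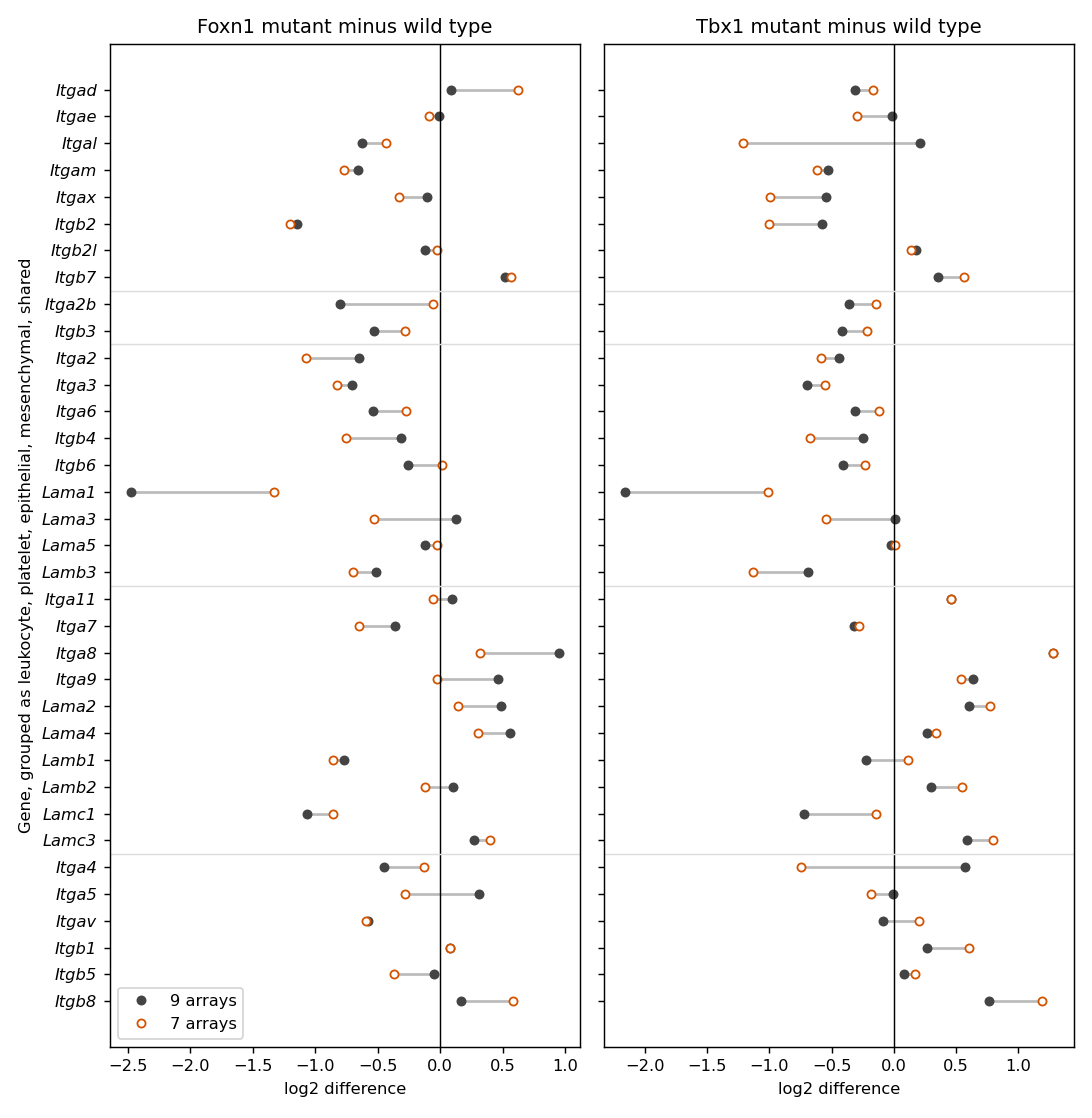
Log2 difference of each gene from wild type over all 9 arrays (filled points) and without wild type replicate 1 and Foxn1 mutant replicate 2 (open points, 7 arrays), for the Foxn1 mutants (left) and the Tbx1 mutants (right). Itgal and Itga4 cross 0 in the Tbx1 comparison, Itga8 stays near 1.27 there and drops in the Foxn1 comparison.

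The partners of integrins and laminins were read from lists of cytoplasmic linkers, matrix ligands, basement membrane components, cell-surface counter-receptors and membrane partners. None of their 79 measured genes was called in any of the 3 comparisons between genotypes, so the following are values and not changes. The 14 measured matrix ligands had a median of -0.05 in the Foxn1 mutants (6 higher) and 0.55 in the Tbx1 mutants (12 higher, Npnt lower). Fn1, fibronectin, the ligand of the integrins with Itga4, Itga5 and Itgav, read 13.48, 14.09 and 14.74 for wild type lobes, 13.81, 14.45 and 13.49 for Foxn1 mutant lobes and 15.07, 14.63 and 14.99 for Tbx1 mutant lobes. Fn1 differed from wild type by -0.19 in the Foxn1 mutants and 0.79 in the Tbx1 mutants. Emilin1, an elastic fibre protein bound through Itga4 and Itga9, read 4.85, 5.43 and 5.21 for wild type lobes, 5.75, 5.80 and 5.92 for Foxn1 mutant lobes and 5.70, 5.82 and 5.67 for Tbx1 mutant lobes, and was higher on every mutant array than on any wild type array. Over all clusters, 4.86% lay wholly above wild type in the Foxn1 mutants and 5.18% in the Tbx1 mutants. Emilin1 was above the negative-control median on 8 arrays and exceeded the 95th percentile on no array.

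Among 19 basement membrane genes the median was 0.05 in the Foxn1 mutants (10 higher) and 0.20 in the Tbx1 mutants (15 higher). Col4a2, a chain of the type IV collagen network that overlies laminin, read 8.26, 7.29 and 7.67 for wild type lobes, 7.01, 6.85 and 6.67 for Foxn1 mutant lobes and 7.65, 6.48 and 6.78 for Tbx1 mutant lobes, with differences of -0.89 ± 0.34 and -0.77 ± 0.34 (SE, n = 3 per genotype). Col4a2 exceeded the negative-control 95th percentile on no array. Smoc1, a secreted calcium-binding matrix protein above the negative-control median on 3 arrays, was -0.94 and -0.96, Col18a1 was 0.58 in the Tbx1 mutants, and Col4a6, above the negative-control median on 2 arrays, was 0.87 in the Foxn1 mutants.

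The 23 cytoplasmic linkers had medians of 0.10 and 0.07 in the Foxn1 and Tbx1 mutants. Parvb, a parvin that ties integrin-linked kinase to actin, read 6.34, 6.47 and 6.77 for wild type lobes, 5.89, 5.37 and 5.92 for Foxn1 mutant lobes and 6.87, 6.98 and 7.33 for Tbx1 mutant lobes. It was lower on all Foxn1 mutant arrays and higher on all Tbx1 mutant arrays than on any wild type array, with differences of -0.80 ± 0.24 and 0.54 ± 0.24 (SE, n = 3 per genotype; adjusted p = 1.00 for both). Over all clusters, 3.43% lay wholly under wild type in the Foxn1 mutants and 5.18% wholly above it in the Tbx1 mutants. Parvb exceeded the negative-control 95th percentile on no array. Itgb1bp1, a cytoplasmic regulator of Itgb1 integrins, was 0.51 and 0.53, the cytoskeletal linker Dst -1.37 in the Foxn1 mutants, and Lims2, above the negative-control median on 1 array, -0.93 in the Tbx1 mutants. Dst was highest on wild type replicate 1 (10.84; 6.78 to 8.16 elsewhere).

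The 12 counter-receptors had medians of 0.04 and 0.11. Vcam1, the ligand of the Itga4 and Itgb1 pair, was 0.41 and 0.18. Madcam1, the ligand of the Itga4 and Itgb7 pair, was under the negative-control median on all 9 arrays. Jam3 was -0.47 in the Foxn1 mutants, and F11r -0.25 and Icam2 0.24 in the Tbx1 mutants. The 11 membrane partners had medians of 0.13 and 0.14. Sdc1, the matrix proteoglycan syndecan-1, was 0.58 ± 0.24 and 0.49 ± 0.24 (SE, n = 3 per genotype), Cd151, the tetraspanin that associates with laminin-binding integrins, -0.68 ± 0.30 in the Tbx1 mutants, and Cd9, a further tetraspanin, -0.68. Cd63 was 0.32 and Slc3a2 -0.23 in the Foxn1 mutants, and among the ligands Thbs1 was -0.40 and Postn 0.60 in that comparison.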

How the data were processed

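Total RNA was amplified, biotin-labelled and hybridised to Clariom S mouse arrays, per the labels' protocols. The authors deposited log2 values per transcript cluster, used here as given; normalization method, software and genome build were not given in the sources used here. Of all features, 6640 control features were left out of the tests, leaving 22206 clusters.

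The arrays of all genotypes entered a single linear model in limma (version 3.58.1, R 4.3.3, package data.table at version 1.17.8), with empirical Bayes moderation, two-sided tests, Benjamini-Hochberg adjustment over all clusters and a threshold of 0.05. Errors with ± are SEs from this model, and 95% intervals use its moderated spread. The fit was tested on simulated data with independent noise, without arrays that stood apart or title codes. That test therefore does not cover these features of the arrays. A cluster was called above background where it exceeded the median of an array's negative controls. Promoter letters were searched and figures drawn in Python 3.11.15 with pandas 2.3.3 and matplotlib 3.10.9.

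The members, classes and gene lists were chosen with earlier results of these data known. Named with values on every array were the 4 members of lowest p per comparison, members whose arrays separated, and textbook partners of integrin pairs and laminin trimers; for each partner list the 3 genes of lowest p against wild type were named. Other genes with values, such as Ptprc, Pf4 and Csf1r, were chosen after their values were seen. Alternatives were quantile normalization, median centring, a filter on dim clusters, the negative-control median as a floor, robust moderation with an intensity trend, array weights, the title code as a fixed or random block, other thresholds, only the groups compared, 1 cluster of each identical set, each array left out in turn, and both arrays that stood apart left out together.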

Additional observations from a re-analysis of the deposited data

How the results depend on the processing

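No member passed an adjusted p of 0.05 under any alternative run. At an unadjusted p of 0.05 there were 3 members between Foxn1 mutants and wild type and 2 between Tbx1 mutants and wild type. Counts over all clusters moved. Between Tbx1 mutants and wild type they were 17 with array weights, 1 with the title code as a fixed block, 0 with only the groups compared and 0 to 20 with each array left out, with 20 without wild type replicate 2. Between Foxn1 mutants and wild type they were 1 with only the groups compared and 0 to 3 with each array left out, with 3 without Tbx1 mutant replicate 1. Between the mutants they were 2 with the negative-control floor, 4 with array weights, 2 with only the groups compared, 2 without both arrays that stood apart, and 0 to 3 with each array left out. For any difference they were 1 with the fixed block and 0 to 3 with each array left out.

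Itga4 and Itgal turned sign. With each array left out, Itga4 ran from -1.77 to 1.19 in the Foxn1 mutants and from -0.75 to 1.31 in the Tbx1 mutants, and Itgal from -2.05 to 0.99 and from -1.21 to 1.00. In the Tbx1 mutants they were -0.30 and -0.70 with array weights, and -0.75 and -1.21 without both arrays that stood apart. Between the mutants, with the title code as a fixed block, Itgav was 0.073, Itgb8 0.29, Lamb1 0.21, Lamc3 0.023, the epithelial median -0.22 and the mesenchymal median 0.27. The epithelial median between Foxn1 mutants and wild type ran from -0.71 to -0.24 with each array left out, the latter without wild type replicate 2. The cause of these shifts was not tested. Without the dimmest clusters 16654 clusters and 34 members remained. Signal over background limits the 11 members not above the negative-control median on every array (Itgal, Itgam, Itgae, Itgb2, Itgb2l, Itgad, Itgax, Itga7, Itga11, Lamb3 and Lamc3), 21 members exceeded the 95th percentile on no array, and the number of arrays limits all members.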
